A study of Mus musculus with 16 samples.

Results

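Integrin chain transcripts were followed in sorted microglia by taking the rows of 10 named chains, the alpha chains Itgax, Itgam, Itgal, Itga4, Itga5, Itga6 and Itgav and the beta chains Itgb1, Itgb2 and Itgb5, from the deposited expression table. All 10 were listed among its 17951 genes. The chains were taken by name and not by a filter on their values, but with earlier results of these data known. The 16 RNA-seq libraries were made from microglia sorted as Cd11b+ Cd45+ cells of mice injected with methoxy-X04 (Me-X04), a dye that enters the brain and binds amyloid. WT mice (2 months old by the sample labels) gave 7 libraries. 5xFAD mice (6 months old by the labels) gave 5 libraries of cells without dye, TG Me-X04-, named X04- below, and 4 of cells with dye, TG Me-X04+, named X04+ below. 5xFAD mice carry mutant human amyloid precursor protein and presenilin transgenes that are driven in neurons by the Thy1 promoter. Each of the 4 X04+ libraries shares its number with an X04- library. TG libraries of the same number were taken below as the same animal, which the number alone does not establish. The WT libraries are from 7 other animals. The study's methods add CX3CR1 and viability to the sort and give TG and WT ages closer to each other than the labels do. By the labels, age and genotype cannot be told apart in a comparison with WT.

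Integrins are receptors of 1 alpha and 1 beta chain that tie a cell to matrix, to other cells and to opsonised particles. On myeloid cells the beta chain Itgb2 pairs with Itgal to form LFA-1, with Itgam to form complement receptor 3 and with Itgax to form complement receptor 4. Itgb1 pairs with Itga4, Itga5 and Itga6 in receptors for Vcam1 and fibronectin, for fibronectin and for laminin, while Itgav pairs with several beta chains, Itgb5 among them, to bind vitronectin and the phagocytic bridge Mfge8. Itgam encodes Cd11b, the surface protein on which every library was sorted, and Itgax encodes Cd11c.

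The beta2-partner alpha chains lie on 1 chromosome. On GRCm38, Itgam (ENSMUSG00000030786) spans chr7:128062640-128118491 and Itgax (ENSMUSG00000030789) chr7:128129547-128150657, both on the plus strand and 11055 bases apart. Itgal (ENSMUSG00000030830) lies on the same strand at chr7:127296260-127335138, ending 727501 bases before Itgam. A further chain of this family, Itgad, begins 3718 bases after Itgax ends and was not among the genes of the deposited table. Because the neighbours Itgam and Itgax behaved differently in the libraries, their upstream sequences are shown. These are the 250 bases before each RefSeq start on GRCm38.p6, on the plus strand and read 5′ to 3′, where 7 of the 10 chains matched an entry. Capitals mark matches, on either strand, to GAGGAA (a core bound by PU.1, the myeloid Ets factor) and to TGANTCA (bound by AP-1). CACGTG, the E-box of MiT/TFE factors, was searched as well.
Itgax, chr7:128129300-128129549: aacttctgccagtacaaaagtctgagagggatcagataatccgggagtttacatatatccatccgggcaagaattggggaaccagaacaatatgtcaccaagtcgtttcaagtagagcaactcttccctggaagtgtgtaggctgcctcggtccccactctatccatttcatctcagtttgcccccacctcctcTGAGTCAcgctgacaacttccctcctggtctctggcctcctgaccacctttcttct
Itgam, chr7:128062390-128062639: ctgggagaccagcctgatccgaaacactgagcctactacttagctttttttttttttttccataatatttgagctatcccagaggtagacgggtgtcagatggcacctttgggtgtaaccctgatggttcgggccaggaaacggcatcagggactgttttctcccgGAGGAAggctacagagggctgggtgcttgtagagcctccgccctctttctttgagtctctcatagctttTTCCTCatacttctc
The Itgax window held 1 TGANTCA, as TGAGTCA 56 bases before the start, and neither of the other motifs. The Itgam window held GAGGAA 84 bases before the start and its reverse complement TTCCTC at 15 bases, and neither of the others. Among 32851 RefSeq windows of this length, 23.3% held GAGGAA, 6.7% TGANTCA and 6.0% CACGTG. A match is a description of the letters and not of a bound site.

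Itgax and Itgad also share coding sequence, which bears on how reads of Itgax were counted. The longest run common to their annotated transcripts was 188 bases, in exons 11 to 13 of Itgax within chr7:128135612-128136062, and is shown because a read of 50 bases can fall wholly inside it.
Itgax and Itgad: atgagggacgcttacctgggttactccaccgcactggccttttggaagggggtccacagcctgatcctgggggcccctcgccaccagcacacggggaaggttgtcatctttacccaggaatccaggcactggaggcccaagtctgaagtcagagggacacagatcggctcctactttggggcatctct
Of the 50-base words of Itgax, 8.02% occurred in Itgad. This is a share of words and not of reads, and its effect on the reads counted on Itgax was not tested. Another annotated gene, Gm49368, overlaps Itgam and holds 66.34% of its 50-base words. Like Itgad it was not among the genes of the deposited table. How the authors' counting treated reads common to Gm49368 and Itgam is not given in the sources used here. Each of the 10 chains was compared with every other chain, with Itgad and with Gm49368. Of these 110 comparisons, which take each pair of the 10 chains in both directions, only the 2 given above shared a word.

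Depth was 15623664 to 22119327 reads per WT library, 17216633 to 25184600 per X04- library and 22430251 to 27579017 per X04+ library. After subtraction of the group means, the leading principal component (37.82% of the variance) parted the libraries into set A (WT replicates 1 to 3 and replicates 1 and 2 of both TG groups) and set B (the other 9). The study names 2 sequencers without saying which library ran on which. Genes of the mitochondrial genome took 10.96 to 24.06% of the reads in WT, 18.23 to 35.64% in X04- and 27.22 to 44.77% in X04+ libraries. All 8 microglia markers (P2ry12, Tmem119 and others) were listed, with a summed level of 4702 to 7021 RPKM in WT, 4171 to 7836 in X04- and 5186 to 7816 in X04+, and of these Tmem119 was lower in X04+ than in X04- (log2FC -1.58, limma adjusted p = 0.00821). Levels are given as log2 RPKM, in which reads are scaled to gene length and library size, so that levels can be compared between genes. Differences were tested with limma over all 17951 genes, and a gene was called at a Benjamini-Hochberg adjusted p under 0.05 if its log2 fold change (log2FC) was also 0.7 or more in size.

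Itgax rose in X04+ microglia to a mean level below only those of Itgam, Itgb2 and Itgb5 among the chains. Its log2 RPKM in WT libraries had a lowest value of -0.62, a median of -0.30 and a highest of 1.44. In X04- replicates 1 to 5 it was 2.85, 1.60, 1.21, 1.89 and 2.05, and in X04+ replicates 1 to 4 it was 5.77, 6.48, 5.07 and 5.45. The X04+ libraries lay above all others, and X04- lay above WT except that X04- replicate 3 was below WT replicate 1. Itgax was supported by 42 to 180 reads per WT library, 242 to 478 in X04- and 2908 to 5388 in X04+. In X04+ it was 3.77 higher on the log2 scale than in X04- (SE 0.42, 95% interval 2.89 to 4.65, limma adjusted p = 9.7e-05) and 5.69 higher than in WT (SE 0.39, interval 4.86 to 6.51, adjusted p = 6.97e-08). Both calls held in each of the 16 fits that left out 1 library. The rise from X04- to X04+ was between 2.92 and 4.88 in the 4 animals, 3.90 within set A and 3.54 within set B.

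Between X04- and WT, Itgax was 1.92 higher (SE 0.36, interval 1.15 to 2.69, adjusted p = 0.0365), 2.06 within set A and 1.84 within set B. This call held without WT replicate 1, X04- replicate 3, X04+ replicate 2 or X04+ replicate 3, and was lost without each of the other 12 libraries, where the log2FC stayed between 1.68 and 2.16 and the adjusted p reached 0.164. With the animal as a random block the adjusted p was 0.0384, and with the replicate number as a fixed block it was 0.102. The number joins WT libraries to TG libraries of other animals, so the fixed block is no pairing in a comparison with WT. With a term for the 2 sets it was 0.00861. On the scale of log2(RPKM + 1) the log2FC was 1.24 (adjusted p = 0.143), and with voom on the recovered reads it was 1.91 (adjusted p = 0.102). In bulk RNA, more cells with Itgax and more Itgax RNA per cell cannot be told apart.

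**Figure D1:**
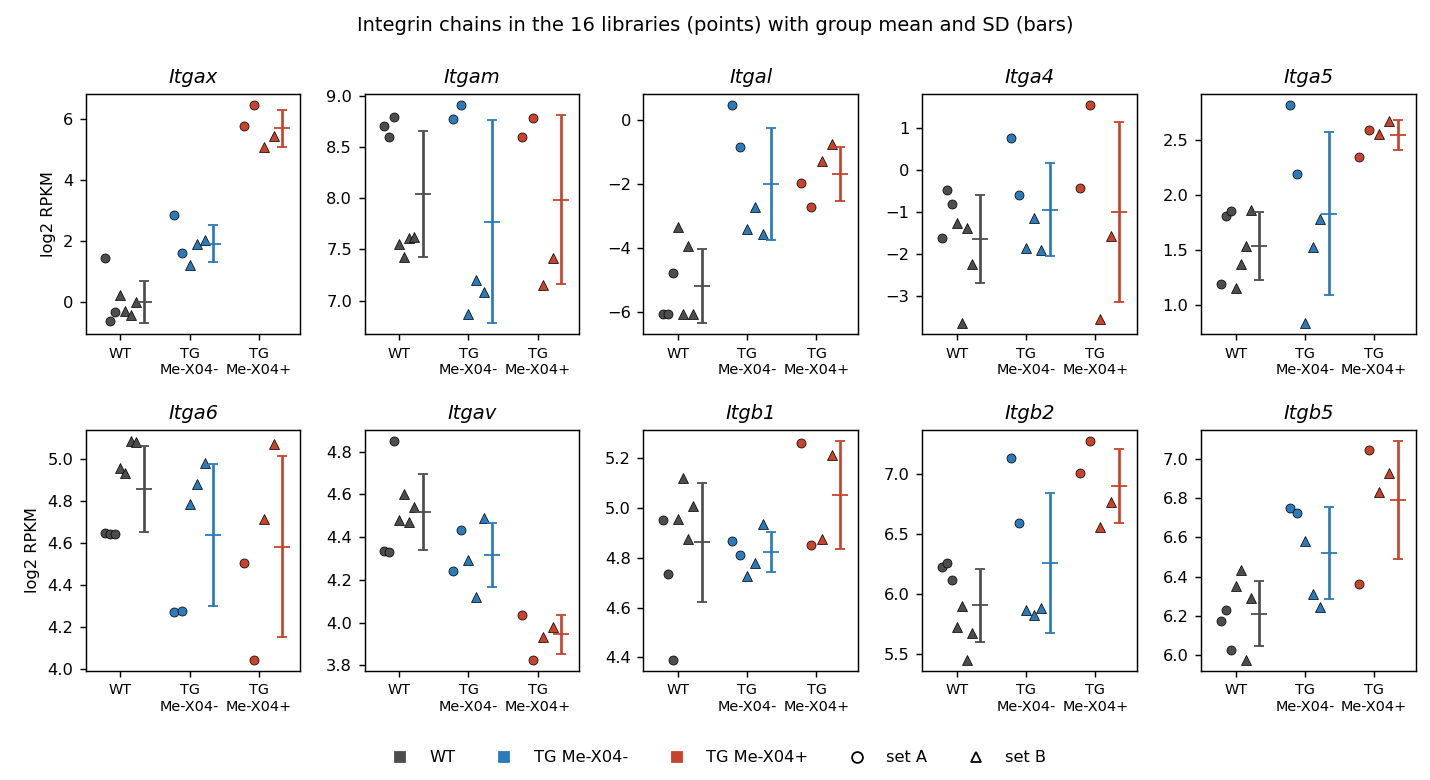
Log2 RPKM of each integrin chain in each of the 16 libraries (points; circles are set A and triangles set B), by group, with the group mean and SD as bars and a separate vertical axis for each chain. Itgax rises from WT through TG Me-X04- to TG Me-X04+, Itgav is lowest in TG Me-X04+, and Itgam parts by set, with set A between 8.59 and 8.92 and set B between 6.87 and 7.63.

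Itgam did not follow its neighbour. Itgam log2 RPKM in WT ranged from 7.43 over a median of 7.62 to 8.79. It was 8.78, 8.92, 6.87, 7.20 and 7.09 in X04- replicates 1 to 5, and 8.60, 8.78, 7.15 and 7.42 in X04+ replicates 1 to 4. The groups overlapped over nearly their whole range, while the 7 libraries of set A (8.59 to 8.92) lay above the 9 of set B (6.87 to 7.63) in every group. Over all genes, 10.1% parted the 2 sets in this way, and the sets were themselves derived from all genes, Itgam included. The log2FC of Itgam was 0.22 in X04+ against X04- (interval -0.82 to 1.25, adjusted p = 0.866), a direction that turned to -0.54 after quantile normalization and -0.18 after scaling by the reads outside mitochondrial-genome genes. With a term for the sets it was 0.07 with an SE of 0.14. The cells of all groups were sorted on Cd11b, the protein of Itgam, and the part of this gate in the level of Itgam was not tested.

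Itgal, the alpha chain of the lymphocyte-type adhesion receptor LFA-1, was near the limit of detection. It had 0, 0, 2, 12, 0, 8 and 0 reads in WT replicates 1 to 7, where a count of 0 allows up to 3 reads, or a log2 RPKM of up to -5.77 to -5.14 (counting error only). X04- replicates 1 to 5 had 144, 68, 14, 22 and 11 reads, and X04+ replicates 1 to 4 had 20, 13, 57 and 86. As log2 RPKM these were 0.47, -0.86, -3.40, -2.73 and -3.55 in X04-, and -1.99, -2.73, -1.30 and -0.77 in X04+, while the WT libraries ran from -6.06 over a median of -6.06 to -3.37. All X04+ libraries lay above all WT libraries, and the X04- libraries overlapped both groups. Itgal was 3.50 higher in X04+ than in WT (SE 0.81, interval 1.78 to 5.21, adjusted p = 0.0067). The value depends on the prior that the authors added to the reads, and on the scale of log2(RPKM + 1) the log2FC was 0.37 (adjusted p = 0.169). Against WT, X04- had a log2FC of 3.18 (interval 1.58 to 4.78) that missed the threshold (adjusted p = 0.159). Between the TG groups the direction differed by set, -2.16 within the A libraries against 2.19 within the B libraries, and the log2FC of 0.32 (interval -1.52 to 2.15, adjusted p = 0.889) turned to -0.08 after scaling by the reads outside mitochondrial-genome genes.

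Markers of other leukocytes were set beside Itgal, because these cells carry LFA-1. None of 7 T and NK cell markers (Cd3e and others) was listed. Of 4 monocyte markers, Ccr2 and Chil3 were listed, with a summed level of 2.06 to 4.07 RPKM in WT, 1.38 to 9.02 in X04- and 0.909 to 7.55 in X04+. Of 7 neutrophil markers, S100a8, S100a9 and Ngp were listed, with sums of 0 to 12.3, 0.0893 to 25.6 and 0 to 20.6 RPKM. In X04- replicate 1, the library highest in Itgal, Chil3 had 173 reads, Ngp 127 and S100a9 118. In X04+ replicate 4, the highest of its group in Itgal, each of Chil3, Ngp, S100a8 and S100a9 had 0 reads. Ccr2 ran the other way, with 218 to 465 reads in WT, 194 to 365 in X04- and 62 to 178 in X04+, and was at 0 in no library. The part of other leukocytes in the Itgal values was not tested.

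Itgb2, the beta chain shared by Itgal, Itgam and Itgax, was higher in X04+ than in WT. Its WT log2 RPKM had a lowest value of 5.45, a median of 5.90 and a highest of 6.26. It was 7.14, 6.59, 5.87, 5.82 and 5.89 in X04- replicates 1 to 5 and 7.01, 7.27, 6.56 and 6.77 in X04+ replicates 1 to 4. X04+ lay wholly above WT, and the set A libraries of X04- reached into the X04+ range. The difference from WT was 1.00 (SE 0.26, interval 0.46 to 1.54, adjusted p = 0.0131), 0.94 within set A and 0.98 within set B. Without X04+ replicate 2 it was 0.87 and missed the threshold (adjusted p = 0.0533). It was 0.38 (adjusted p = 0.277) after quantile normalization, and 0.70 (adjusted p = 0.0234), just under the fold threshold, after scaling by the reads outside mitochondrial-genome genes. Against X04-, the log2FC of Itgb2 was 0.64 (interval 0.06 to 1.22, adjusted p = 0.208), with X04+ higher in 3 of 4 animals. After quantile normalization it was 0.02.

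The balance among the alpha chains that pair with Itgb2 does not depend on how libraries are scaled, as it is a ratio within a library. Of the summed RPKM of Itgal, Itgam and Itgax, Itgam made up 99.3 to 99.8% in WT libraries, 97 to 99.3% in X04- and 79.4 to 87.7% in X04+. The share of Itgax was 0.162 to 0.639% in WT with a median of 0.458%. It was 0.618 to 2.94% in X04- with a median of 1.92%, and 12.3 to 20.3% in X04+ with a median of 17.9%. X04+ lay apart from the other groups, whereas WT and X04- touched at their edges. Within set B alone WT (0.369 to 0.612%) and X04- (1.92 to 2.94%) were apart, and within set A they overlapped. Itgal never exceeded 0.306%. On the log2 RPKM scale Itgax lay 4.78 to 6.88 below Itgb2 in the WT libraries, 3.84 to 4.99 below it in X04- and 0.80 to 1.49 below it in X04+. These shares describe transcripts and not receptors at the surface.

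**Figure D2:**
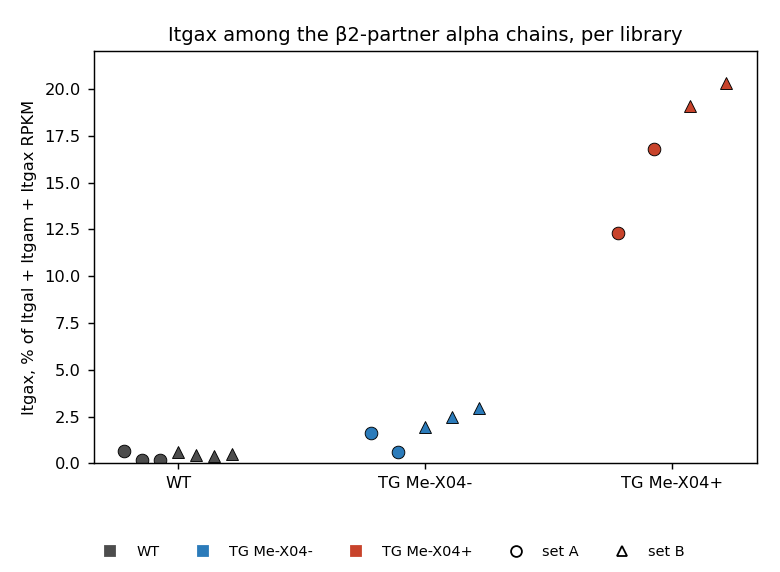
Share of Itgax (percent, linear axis from 0) in the summed RPKM of the alpha chains Itgal, Itgam and Itgax, 1 point per library, by group, with circles for set A and triangles for set B. The 4 TG Me-X04+ libraries lie between 12.3 and 20.3%, above all TG Me-X04- (at most 2.94%) and WT libraries (at most 0.639%).

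Among the alpha chains of other families, Itga5, the fibronectin receptor chain, was higher in X04+ than in WT. Its log2 RPKM in WT ran from 1.15 over a median of 1.53 to 1.86. X04- replicates 1 to 5 had 2.82, 2.18, 0.83, 1.53 and 1.78, and X04+ replicates 1 to 4 had 2.35, 2.59, 2.56 and 2.67. X04+ was the tightest group (SD 0.14, n = 4, against 0.74, n = 5, in X04- and 0.31, n = 7, in WT) and lay wholly above WT, while X04- spread across both. Against WT the log2FC of Itga5 was 1.00 (SE 0.31, interval 0.35 to 1.65, adjusted p = 0.0359). The call was lost without any 1 of WT replicates 1, 4, 5 and 6 or X04+ replicates 2, 3 and 4, with log2FC of 0.94 to 1.00 and adjusted p of 0.0557 to 0.0772. Blocked by replicate number, which joins WT to TG libraries of other animals and is no pairing here, its adjusted p was 0.0907. Blocked by animal it was 0.0492. Scaling by the reads outside mitochondrial-genome genes gave 0.70 (adjusted p = 0.0962), and quantile normalization 0.98 (adjusted p = 0.0607). Against X04-, Itga5 had a log2FC of 0.71 (interval 0.02 to 1.40, adjusted p = 0.252), with -0.04 within set A and 1.23 within set B.

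Itgav, which with several beta chains binds vitronectin and Mfge8, was lowest in X04+. It ranged from 4.33 over a median of 4.48 to 4.85 in WT. It was 4.24, 4.44, 4.29, 4.12 and 4.49 in X04- replicates 1 to 5, and 4.04, 3.83, 3.93 and 3.98 in X04+ replicates 1 to 4. All X04+ values lay below all values of the other groups, and in each of the 4 animals X04+ was lower, by 0.14 to 0.61. The log2FC of Itgav was -0.57 against WT (SE 0.15, interval -0.88 to -0.26, adjusted p = 0.014), past the p threshold and under the fold threshold, and -0.37 against X04- (interval -0.71 to -0.04, adjusted p = 0.209). The difference from WT was the same in both sets, -0.57 in each. It was -0.77 after quantile normalization and -0.87 after scaling by the reads outside mitochondrial-genome genes, and passed both thresholds there.

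Itga4 and Itga6 showed no called difference. Itga4, the alpha chain of the Vcam1 receptor, varied from -3.66 over a median of -1.39 to -0.47 in WT. In X04- replicates 1 to 5 it was 0.78, -0.58, -1.86, -1.14 and -1.91, and in X04+ replicates 1 to 4 it was -0.43, 1.57, -3.56 and -1.57. In both TG groups the 2 set A libraries were the highest, and 25 to 621 reads lay behind the values. The interval of the difference between X04+ and X04- was -1.91 to 1.81, and did not exclude a sizeable change in either direction. Itga6, the laminin receptor chain, was far steadier, from 4.64 over a median of 4.93 to 5.09 in WT. It was 4.27, 4.28, 4.79, 4.88 and 4.98 in X04- and 4.51, 4.04, 4.71 and 5.07 in X04+. Like Itgam, Itga6 parted the sets, in the opposite direction, with set A at 4.04 to 4.65 and set B at 4.71 to 5.09. Its log2FC was -0.06 between the TG groups (interval -0.53 to 0.42) and -0.27 against WT (interval -0.71 to 0.17).

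The beta chains Itgb1 and Itgb5 moved little. Itgb1, the partner of Itga4, Itga5 and Itga6, ran from 4.39 over a median of 4.95 to 5.12 in WT. It was 4.87, 4.81, 4.73, 4.78 and 4.94 in X04- replicates 1 to 5 and 5.26, 4.85, 4.88 and 5.22 in X04+ replicates 1 to 4, with all groups overlapping. X04+ was above X04- in each of the 4 animals, by 0.04 to 0.44, but the log2FC of 0.23 (interval -0.14 to 0.59, adjusted p = 0.536) turned to -0.15 after quantile normalization. Itgb5, a partner of Itgav, ran from 5.98 over a median of 6.23 to 6.43 in WT. It was 6.75, 6.73, 6.58, 6.31 and 6.24 in X04- and 6.36, 7.05, 6.83 and 6.93 in X04+, where replicate 1 fell within the WT range. Itgb5 was 0.58 higher in X04+ than in WT (SE 0.17, interval 0.21 to 0.95, adjusted p = 0.032), under the fold threshold, and 0.72 higher (adjusted p = 0.00981) without that replicate. Quantile normalization brought it to -0.06.

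Counted together, 1 chain was called between the TG groups, 1 in X04- against WT and 4 in X04+ against WT. In X04+ against X04-, 1 of the 10 (Itgax) was called, beside 5.49% of all genes, 3.44% higher and 2.06% lower. By the adjusted p alone (5.58% of all genes) it was also 1 of the 10, and 4 of the 10 had an unadjusted p under 0.05, beside 18.7% of all genes. The median log2FC of the 10 was 0.25, beside -0.09 over all genes. In X04- against WT, 1 of the 10 (again Itgax) was called, beside 0.201% of all genes, of which 0.189% were higher and 0.0111% lower, with a median of 0.30 beside 0.01. None of the 10 had groups without overlap there, beside 1.06% of all genes. In X04+ against WT, 4 of the 10 (Itgax, Itgal, Itga5 and Itgb2) were called, all higher in the deposited scaling, beside 14.3% of all genes called, 8.25% higher and 6.02% lower, with a median of 0.61 beside -0.11. By the adjusted p alone 6 of the 10 passed, Itgav and Itgb5 in addition, beside 14.8% of all genes. Groups without overlap were found for 2 of the 10 between the TG groups (7.93% of all genes) (Itgax and Itgav), and for 5 of the 10 between X04+ and WT (10.5%), Itgax, Itgal, Itga5, Itgav and Itgb2. The comparisons share libraries, X04- in the first and the second and WT in both comparisons with it, so they are not independent of each other. Scaling by the reads outside mitochondrial-genome genes moved the median log2FC of all genes from -0.09 to -0.49 between the TG groups, and the calls from 617 higher and 369 lower to 249 higher and 948 lower. Under that scaling, the log2FC between the TG groups was 3.38 for Itgax (adjusted p = 0.000176), 0.25 for Itgb2 (adjusted p = 0.464), 0.32 for Itga5 (adjusted p = 0.513) and -0.76 for Itgav (adjusted p = 0.0216), beside the median of -0.49 over all genes. In X04+ against WT the same scaling moved the median from -0.11 to -0.41 and the calls from 1481 higher and 1081 lower to 1009 higher and 2070 lower. The chains called there were then Itgax (5.39) and Itgal (3.19), both higher, and Itgav (-0.87), lower, so that not all chains called against WT were higher.

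**Figure D3:**
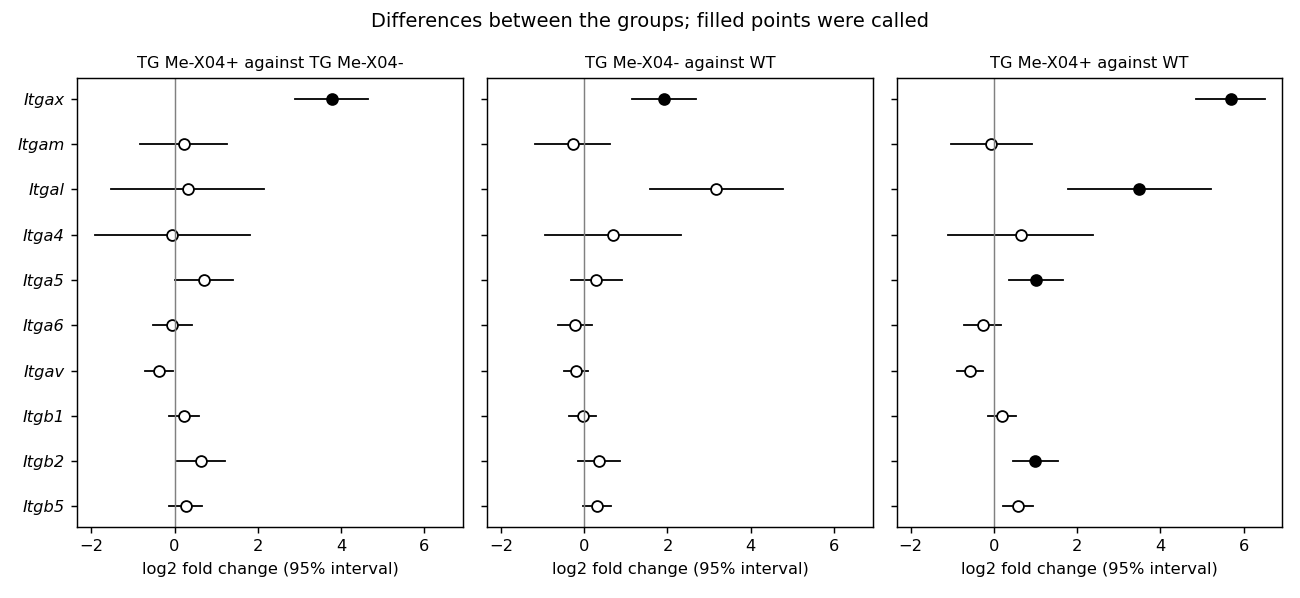
Log2 fold change of each integrin chain (points) with its 95% interval from limma (lines) in the 3 comparisons. Filled points were called, which holds for Itgax in all 3 panels, at 3.77, 1.92 and 5.69, and for Itgal, Itga5 and Itgb2 in TG Me-X04+ against WT alone.

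The order of the chains by level shows where Itgax moved. In WT libraries Itgam had the highest mean log2 RPKM (8.04, the 99.5th percentile of listed genes), followed by Itgb5 (6.21), Itgb2 (5.91), Itgb1 (4.86), Itga6 (4.86), Itgav (4.52), Itga5 (1.54), Itgax (0.003), Itga4 (-1.64) and Itgal (-5.19). Neighbours whose ranges did not overlap were Itgam and Itgb5, Itgb2 and Itgb1, and Itgav and Itga5. In X04- the order was the same except that Itgax (1.92) came before Itga5 (1.83), with overlapping ranges. In X04+ Itgax (5.69) had passed Itgb1, Itga6 and Itgav and came after only Itgam (7.99), Itgb2 (6.90) and Itgb5 (6.79), with ranges that overlapped those of Itgb5 above it and Itgb1 below it. Among all listed genes the mean of Itgax rose from the 25.3rd percentile in WT to the 56.3rd in X04- and the 96.5th in X04+.

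The 5 genes closest to Itgax in profile were sought among the other 17950, by the mean absolute difference of log2 RPKM after centring each gene on its own mean over the 16 libraries. Csf1, the macrophage growth factor, was nearest at 0.42, followed by Hpse (0.56), the heparanase that cuts heparan sulfate, Flt1 (0.60), a VEGF receptor, Trpm1 (0.63), a cation channel, and Gm13362 (0.63), against a median of 2.05 over all genes. Csf1 had a mean log2 RPKM of 0.80 in WT, 2.49 in X04- and 5.57 in X04+, with 120 to 246 reads in the WT libraries. The other 4 were much lower, with at most 13 reads in any WT library, and Gm13362 had 0 in each. Flt1 is also a marker of endothelial cells, whose other listed markers, Pecam1 and Kdr, were not called in X04+ against X04- (limma adjusted p = 0.233 and 0.398). Pecam1 had 0 to 878 reads in X04+ and 174 to 240 in X04-. The summed level of the 3 endothelial markers was 2.48 to 13.5 RPKM in WT, 1.55 to 2.69 in X04- and 1.20 to 8.19 in X04+, and the part of endothelial cells in the Flt1 values was not tested. Of the other 9 chains the nearest was Itgal at 1.47, at rank 635. Of 7 further integrin subunits listed, Itgb8, the beta chain of a TGF-beta-binding integrin, was nearer, at 1.04 and rank 101, on 0 to 80 reads per library.

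**Figure D4:**
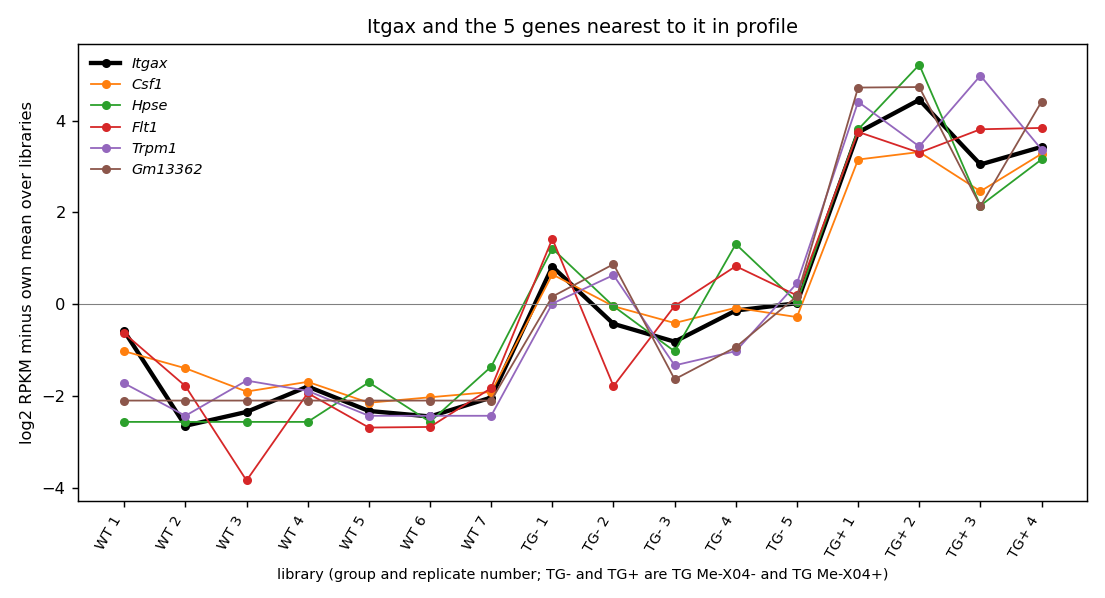
Log2 RPKM of Itgax (heavy line) and of the 5 genes nearest to it in profile, each minus its own mean, in the 16 libraries ordered by group and replicate number. All 6 are highest in the 4 TG Me-X04+ libraries, and WT replicate 1 is the highest WT library for Itgax, Csf1 and Flt1.

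Itgax is also a common marker of dendritic cells. Of 5 dendritic cell markers, Flt3, Clec9a and Zbtb46 were listed and Xcr1 and Cd209a were not, with a summed level of 1.41 to 3.43 RPKM in WT, 1.02 to 2.33 in X04- and 1.13 to 7.72 in X04+. The highest sum was in X04+ replicate 2, the library highest in Itgax, where Clec9a had 346 reads. Without that library the log2FC of Itgax against X04- was 3.51 (adjusted p = 0.000684). Of 7 border macrophage markers 6 were listed, with sums of 2.18 to 5.54, 1.46 to 7.33 and 2.5 to 20.0 RPKM, and Lyve1 had up to 249 reads in a X04+ library against at most 27 in WT. In X04+ no marker of these lists was called against X04-.

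Other integrin genes were taken from 3 lists. Of 16 further subunits 7 were listed, and in X04+ against X04- 1 was called, beside 5.49% of all genes. It was Itga9, a beta1 partner that binds osteopontin and tenascin. Itga9 was 4.32, 4.50, 3.51, 3.07 and 3.68 in X04- replicates 1 to 5, and 1.68, 3.51, 2.38 and 2.33 in X04+ replicates 1 to 4, overlapping at replicate 2. Its log2FC was -1.34 (interval -2.08 to -0.60, adjusted p = 0.0328). The call was lost without X04- replicate 1, 2 or 5 or X04+ replicate 1, 3 or 4, with adjusted p up to 0.0982. It was also lost with eBayes without a trend (limma adjusted p = 0.0514), after median centring (0.068) and with only the 2 groups compared (0.109). The list median was -1.34 over the 7, beside -0.09 over all genes, and 5 of the 7 had an unadjusted p under 0.05, beside 18.7% of all genes. With the animal as a random block 3 of the 7 were called, Itga9 and Itgae lower and Itgb3 higher, where that block called 11.8% of all genes. In X04- against WT none of the 7 was called by limma, beside 0.201% of all genes. There 1 had an unadjusted p under 0.05 (5.18% of all genes did), and the median was 0.06.

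Of 28 integrin ligands 16 were listed. In both comparisons 1 was called, beside 5.49% of all genes between the TG groups and 0.201% in X04- against WT. It was Spp1 each time, the secreted phosphoprotein osteopontin that binds Itgav and Itga9 integrins. Spp1 had a log2 RPKM in WT of -2.86 to -0.83 with a median of -2.18, on 3 to 21 reads. It was 2.87, 2.02, 0.58, 0.91 and 0.31 in X04- replicates 1 to 5, and 6.18, 6.10, 3.99 and 3.86 in X04+ replicates 1 to 4. No groups overlapped. Spp1 was 3.70 higher in X04+ than in X04- (interval 2.37 to 5.02, adjusted p = 0.00233), and 3.33 higher in X04- than in WT (interval 2.17 to 4.48, adjusted p = 0.0108). Without X04- replicate 1 the latter was 2.95 and missed the threshold (adjusted p = 0.0521). The median log2FC of the 16 was 0.27 between the TG groups and 0.09 against WT. An unadjusted limma p under 0.05 was found for 6 of the 16 between the TG groups (18.7% of all genes). In X04- against WT it was found for 4 (5.18%). Blocked by replicate number 2 of the 16 were called between the TG groups (C3 and Spp1), beside 4.98% of all genes, and blocked by animal 4 (C3, Fn1, Spp1 and Thbs1), beside 11.8%, each of them higher in X04+.

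Of 42 adaptors and signalling genes, such as talins, kindlins and Src-family kinases, 35 were listed. Fyn, a Src-family kinase, was the 1 of the 35 called between the TG groups, beside 5.49% of all genes. Its log2FC was 1.75 (interval 0.77 to 2.73, adjusted p = 0.0347). Fyn was -0.98, 0.50, 0.24, -0.27 and 0.19 in X04- replicates 1 to 5, and 3.03, 1.36, 1.5 and 0.85 in X04+ replicates 1 to 4, without overlap. The call was lost without X04- replicate 1, 3, 4 or 5 or X04+ replicate 1, 2 or 3, with log2FC from 1.30 and adjusted p up to 0.1. It was also lost with library weights, the mitochondrial scaling, only the 2 groups compared or the replicate number as a fixed block. The median of the 35 was -0.06 between the TG groups, and 7 had an unadjusted limma p under 0.05, beside 18.7% of all genes. None of the 35 was called by limma in X04- against WT, beside 0.201% of all genes. There 1 had an unadjusted p under 0.05 (5.18% of all genes) and the median was -0.12. Blocked by replicate number none of the 35 was called between the TG groups, beside 4.98% of all genes. Blocked by animal 5 were, Fgr, Fyn and Parvb higher and Pxn and Zyx lower, a share near the 11.8% of all genes called by that block.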

How the data were processed

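Reads of 16 libraries of sorted microglia were processed by the authors with Trim Galore 0.4.4, STAR 2.5.4b on GRCm38, featureCounts on Gencode genes and edgeR 3.24.3, per the labels and the study's methods. The authors deposited log2 RPKM, normalised by TMM with a prior added to each count, for the 17951 genes kept by their expression filter. Reads that fit several positions were kept up to a limit, and the use of strand is not given in the sources used here. The authors also deposited gene lengths in bases and columns of their own comparisons (log2 fold changes, p-values and score columns), which enter no result.

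Groups were compared on the deposited log2 values by limma 3.58.1 (R 4.3.3), using eBayes with trend, with the 3 groups in 1 fit and no covariate, two-sided, and adjusted over all 17951 genes. The authors' own quasi-likelihood test on counts was not used, because the deposited values are log2 RPKM. Whole reads were recovered from the spacing of low values, 100% of values being whole within 0.01, and gave depths and the alternative with limma's voom. They show counting error only. The p-values of the main fit rest on the spread between libraries within groups, which includes the difference between sets A and B. That fit also takes TG libraries of the same number as independent.

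The 10 chains, the gene lists and the tests were chosen with earlier results of these data known. The genes named were the 10 chains, up to 5 called genes with the largest change from each list, list genes called against WT, and the 5 genes nearest to Itgax. Markers were named as their lists required, and Itgb8, Itgae, Itgb3, C3, Fn1, Thbs1, Fgr, Parvb, Pxn and Zyx, for their profile or as calls under the block, after their values were seen.

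Same-numbered TG libraries were taken as the same animal. Their deviations from the group means correlated at 0.292 to 0.329 in the 4 pairs, beside 0.221 to 0.332 between other numbers of 1 set. These ranges overlap, so the correlations do not settle the pairing. WT numbers mark other animals, so the fixed replicate block joins WT and TG libraries that share only a number. In simulated data for X04+ against X04- over 17951 genes, calls reached 56 of 200 genes given a log2FC of 1.5 (28%) and 141 of 200 given a log2FC of 3 (70.5%). Only 200 genes were changed in each run, beside 986 called in the data, and the runs held no sets or shared animals. These shares therefore do not give the recovery of the reported test. Alternatives were other variance models, library weights, other scalings, pseudocounts of 1 and 0.1, a filter at a mean log2 RPKM of 0, only the 2 groups compared, no fold threshold, replicate blocks, a set term, voom, and each library left out. Sequences are from RefSeq (GRCm38.p6) and the GENCODE transcripts on GRCm38.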

Additional observations from a re-analysis of the deposited data

Results flagged for a closer look

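Of 30 groups examined (10 chains in 3 groups), 1 held a library far from the others of its group by Dixon's criterion, which chance alone marks in about 5% of groups. Itgax in WT replicate 1 had a log2 RPKM of 1.44, while the other 6 WT libraries lay between -0.62 and 0.24. Its gap to the nearest was 0.585 of the group's range. Without this library, X04- exceeded WT in Itgax by 2.16 on the log2 scale (limma adjusted p = 0.00406).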

How the results depend on the processing

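Over the 30 log2FC of the 10 chains and all alternatives, 849 of 924 values kept their direction and their side of the thresholds, 33 lost a call, 6 gained one and 36 changed sign. Of the 10 chains, 2 were called between the TG groups after scaling by the reads outside mitochondrial-genome genes, and 1 under every other alternative. In X04- against WT, 0 were called with eBayes without a trend, median centring, log2(RPKM + 1), only the 2 groups compared, the replicate number as a fixed block or voom, and 0 to 1 with a library left out. Over all genes 36 were called there in the main fit. In the order just given the alternatives called 31, 34, 13, 33, 18 and 25, and 19 to 35 with a library left out. In X04+ against WT 2 to 5 of the 10 chains were called with a library left out. Over all genes 2124 to 2605 were then called, beside 2562 in the main fit. Of the further subunits, between the TG groups, 0 were called with eBayes without a trend or only the 2 groups, 2 with quantile normalization, the mitochondrial scaling, the set term or voom, 3 with library weights or the random animal block, and 0 to 2 with a library left out. Of the ligands 2 were called with eBayes without a trend, median centring or the fixed replicate block, 3 with library weights, quantile normalization, either pseudocount, the set term or voom, 4 with the random animal block, and 1 to 3 with a library left out. Against WT 0 ligands were called with log2(RPKM + 1) or voom, and 0 to 1 with a library left out. Of the adaptors 2 were called with no fold threshold, the mitochondrial scaling, either pseudocount or voom, 3 with quantile normalization or the set term, 5 with the random animal block, 0 with the fixed block or only the 2 groups, and 0 to 1 with a library left out. Calls over all genes moved as well. Between the TG groups there were 986 in the main fit, 470 with only the 2 groups and 828 with quantile normalization. There were 880 without a trend, 954 with median centring, 894 with the fixed block and 980 and 1009 with the pseudocounts. Voom gave 1025, library weights 1059, the mitochondrial scaling 1197, the random animal block 2110 and the set term 2142. A library left out gave 552 to 1100. The cause of these moves was not tested.

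None of the differences that changed sign under these alternatives was called. Between the TG groups they turned to -0.54 for Itgam, 0.41 for Itga4, -0.15 for Itgb1 and -0.37 for Itgb5 with quantile normalization, and to -0.18 for Itgam, -0.0751 for Itgal, -0.17 for Itgb1 and -0.12 for Itgb5 with the mitochondrial scaling. They turned to -0.0464 for Itgal and 0.15 for Itga4 with log2(RPKM + 1), to 0.0839 for Itga4 with log2(RPKM + 0.1) and to 0.0076 for Itga6 with the fixed replicate block. In X04- against WT Itgb1 turned to 0.0156 with quantile normalization and 0.0524 with the mitochondrial scaling. In X04+ against WT Itga4 turned to -0.022 with library weights, Itgb1 to -0.14 with quantile normalization and -0.11 with the mitochondrial scaling, and Itgb5 to -0.0591 with quantile normalization. With a library left out, the log2FC between the TG groups ran from -0.0496 to 0.50 for Itgam, -0.0673 to 0.94 for Itgal, -0.91 to 0.80 for Itga4 and -0.22 to 0.12 for Itga6. It ran from -0.32 to 0.22 for Itgam and -0.21 to 1.5 for Itga4 in X04+ against WT, and from -0.12 to 0.0051 for Itgb1 in X04- against WT. Apart from the block values given beside Itgax, Itga5 and the lists, the replicate block changed no call of a chain. Few reads were counted in WT libraries on Itgal (0 to 12), Itga4 (26 to 165) and Itgax (42 to 180). The part of depth in these values was not tested.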
